A study of Mus musculus with 6 samples.

Results

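Annexins were read by 20 probe sets for 9 genes (Anxa1 to Anxa9), out of 34945 probe sets for 18193 genes that the platform annotation gives 1 gene symbol. They were taken as every probe set named for 1 of 10 annexins alone. Anxa11, the remaining name, is not analysed here because its probe set carries several symbols. The cells were 393P, a mouse lung cancer line. Of 6 arrays, 3 were from cells stably and constitutively expressing Zeb1 after transfection of a vector (Zeb1 vector) and 3 from cells with the empty pcDNA vector (control vector), 1 array per culture. Zeb1 is a transcriptional repressor that drives epithelial-mesenchymal transition and is known to shut down epithelial genes. All cultures grew in the same serum-containing medium. The sources used here do not say whether each kind of cell is 1 clone or a pool, so p-values speak only of the spread among these cultures.

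Annexins are cytosolic proteins that bind acidic phospholipids, phosphatidylserine above all, when calcium rises. They share a conserved core of calcium-binding repeats and differ in their N-terminal tails, where partners such as S100 proteins dock. In epithelial cells they are known for organising membrane domains, for vesicle traffic and for patching torn plasma membrane, and some of them act outside the cell as well.

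In Zeb1 cells Anxa8 rose 2.11-fold and 2.43-fold on its 2 probe sets, Anxa2 rose 1.25-fold and Anxa5 1.32-fold on their brightest ones, and 1 of 3 tested Anxa6 probe sets rose. Anxa4 fell on all 3 of its probe sets, by 1.63-fold to 1.87-fold, and Anxa9 fell, as did Anxa3 by a small margin. Anxa1 and Anxa7 did not pass the test. In bulk RNA, fewer cells with a transcript and less of it per cell cannot be told apart. Tests were run on probe sets at or above the array median in 3 or more arrays, which held for 17 of the 20, at least 1 for each gene. Of these 17, 11 passed limma's moderated test at an adjusted p of 0.05 (64.7%), 6 higher and 5 lower in Zeb1 cells. The background is high: 46.1% of all 20594 tested probe sets passed, 24.5% higher and 21.6% lower. Among the 19507 that reached the median on at least 1 array of each group, as all 17 annexin probe sets did, 43.5% passed. The share among annexins is thus read against many changes of both directions elsewhere. The median log2 change was 0.14 over the 17 annexin probe sets and 0.02 over all tested ones. Some genes count up to 3 times among the 17. With each of the 9 genes taken by its brightest tested probe set, 3 rose, 3 fell and 3 did not pass. Over all 11893 tested genes 49.3% were called, 25.8% higher and 23.5% lower. Among the 11345 genes that passed the filter in both groups 47.2% were called. The median log2 change of the 9 annexin genes was 0.02, against 0.01 over all 11893 tested genes. Changes of at least 1 on the log2 scale were seen in 2 annexin probe sets, both of Anxa8 and both higher, and in 15.1% of all tested probe sets (8.97% higher and 6.17% lower). The Zeb1 and control arrays did not overlap in 12 of the 17, against 55.4% of all tested probe sets.

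**Figure D1:**
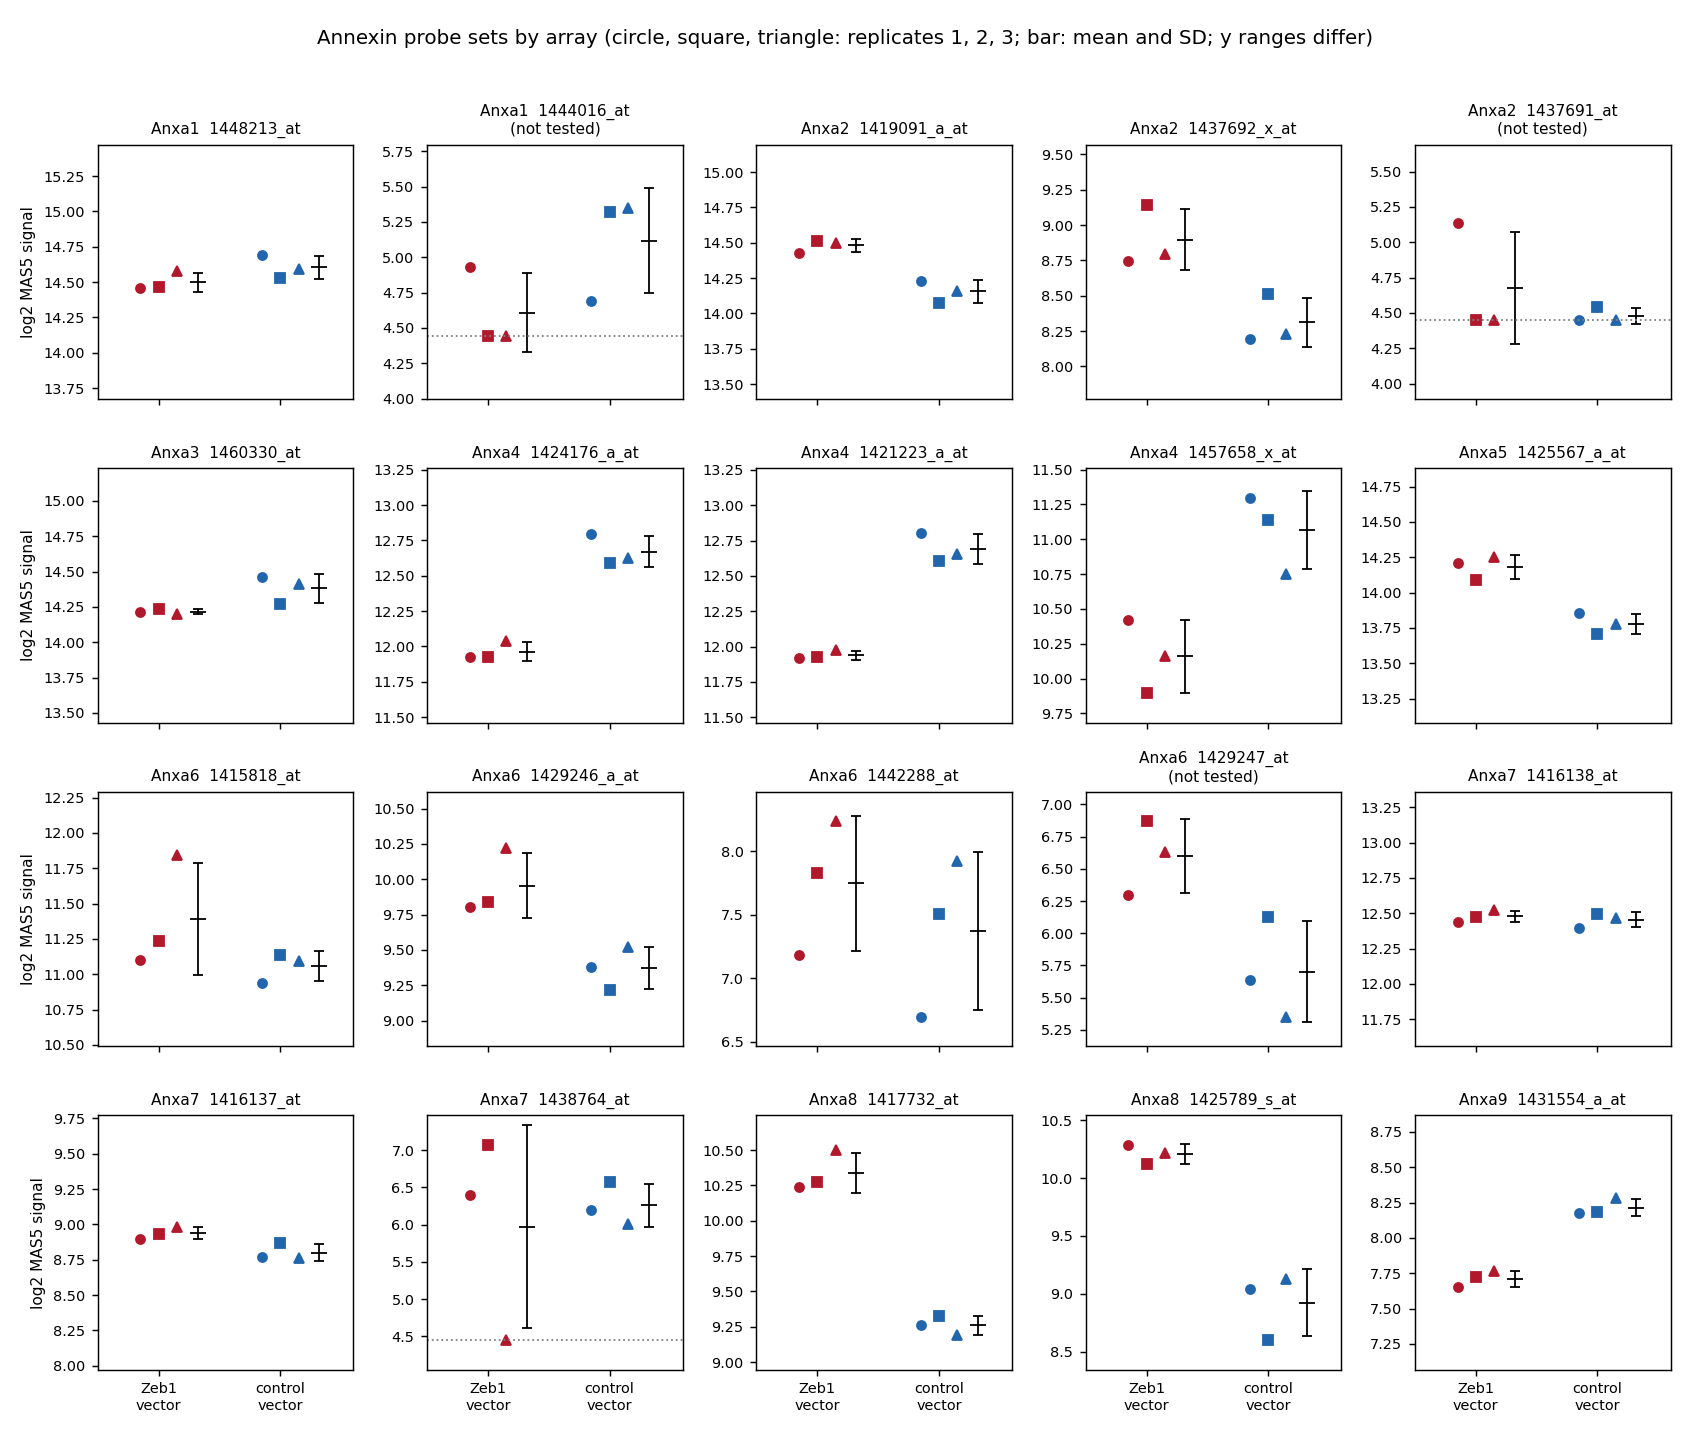
Log2 MAS5 signal (vertical axis, a different range in each panel) of the 20 annexin probe sets on each of the 3 Zeb1 vector arrays (left, red) and 3 control vector arrays (right, blue). Circles, squares and triangles are replicates 1, 2 and 3, the bar is the mean with its SD, and the dotted line is the floor of 4.45; both Anxa8 panels and all 3 Anxa4 panels show groups that do not overlap.

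The arrays carried the contrast their labels name. The Zeb1 probe set 1418926_at had 9.71, 9.59 and 9.78 log2 signal on Zeb1 vector arrays, against 4.45, 4.45 and 4.50 on control vector arrays, where 4.45 is the floor to which lower signals were raised. This probe set entered the test through Zeb1 vector arrays alone, so no p is given. Of the other 3 Zeb1 probe sets 1 rose (by 1.17) and 2 were too dim to test. Correlation across tested probe sets was r = 0.867 to 0.873 between a Zeb1 and a control array, and r = 0.979 to 0.984 within either group, over probe sets, which are not independent replicates. Of 6 epithelial markers 4 fell, among them E-cadherin (Cdh1) by 4.01 and Epcam by 7.05 on the log2 scale. The keratin Krt8 fell by only 0.16 (adjusted p = 0.0131), and the keratins Krt18 and Krt19 did not pass the test. Of the 4 that fell, Cldn4 entered the test through control vector arrays alone, so its call carries no weight. Over all 11893 tested genes 49.3% were called, 23.5% lower. The summed linear signal of the 6 markers was 57552 to 61767 in Zeb1 cells and 99032 to 105202 in control cells. Leukocyte markers summed to 267.2 to 424 in Zeb1 cells and 347 to 404 in control cells over 5 genes, and Ptprc stayed near the floor. Endothelial markers summed to 271 to 409 in Zeb1 cells and 283.5 to 391 in control cells over 4 genes, with Pecam1 at the floor on all arrays. Only 1 marker of each of these lists, Csf1r and Kdr, was bright enough to test, and neither passed.

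Promoter sequences are shown for the gene with the largest rise among these 9 (Anxa8), for the one that fell on 3 probe sets, and for the only one with a Zeb-type E-box, the hexamer CAGGTG that Zeb proteins are known to bind. On the opposite strand it reads CACCTG, and both were searched. RefSeq promoter windows of GRCm38.p6, running from 250 bases before to 50 after a gene's start, were matched for 7 of the 9 genes (not Anxa3 or Anxa6), 10 windows in all. The hexamer is in capitals, and the windows read 5′ to 3′ on the gene's strand.
Anxa8, chr14:34085729-34086028, plus strand: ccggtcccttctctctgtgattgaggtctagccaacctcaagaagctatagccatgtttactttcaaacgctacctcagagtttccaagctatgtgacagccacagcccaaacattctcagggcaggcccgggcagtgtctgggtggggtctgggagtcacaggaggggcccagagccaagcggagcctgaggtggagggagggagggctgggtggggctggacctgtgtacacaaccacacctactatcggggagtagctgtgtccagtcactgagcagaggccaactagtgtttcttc
Anxa4, chr6:86793535-86793834, minus strand: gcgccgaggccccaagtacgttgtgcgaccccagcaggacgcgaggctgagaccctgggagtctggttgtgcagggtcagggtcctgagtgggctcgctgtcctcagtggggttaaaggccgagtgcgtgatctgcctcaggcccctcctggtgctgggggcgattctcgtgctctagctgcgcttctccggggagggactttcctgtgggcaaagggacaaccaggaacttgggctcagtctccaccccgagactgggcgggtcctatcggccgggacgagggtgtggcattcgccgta
Anxa7, chr14:20479892-20480191, minus strand: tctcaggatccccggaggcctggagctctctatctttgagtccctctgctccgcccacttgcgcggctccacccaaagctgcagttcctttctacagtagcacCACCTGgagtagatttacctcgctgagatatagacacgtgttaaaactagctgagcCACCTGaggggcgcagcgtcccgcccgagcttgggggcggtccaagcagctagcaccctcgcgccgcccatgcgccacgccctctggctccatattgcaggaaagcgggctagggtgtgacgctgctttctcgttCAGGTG
The Anxa7 window holds the hexamer 3 times, at bases 104 to 109, 160 to 165 and 295 to 300 counted from 1 at the window's 5′ end. No other of the 10 annexin windows holds it, the second windows of Anxa4, Anxa7 and Anxa9 included. Among all 32851 RefSeq windows 20.2% hold it, so 1 of 10 is no more than a description. Anxa7, whose window holds it, is also 1 of the 2 annexins with no probe set past the test. The 6 genes without it include annexins that rose and annexins that fell. Only 1 gene holds it and Anxa3 and Anxa6 have no window, so any link between the hexamer and these changes was not tested. A match is letters in a window and says nothing about binding in these cells.

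Of the 9 genes, Anxa8 had the largest called changes. Anxa8, a calcium-dependent phospholipid binder known for a place on late endosomes, had 10.24, 10.28 and 10.50 log2 signal on Zeb1 vector arrays, against 9.26, 9.32 and 9.19 on control vector arrays (probe set 1417732_at). The lowest Zeb1 array lay well above the highest control array. The change was 1.08 (SE 0.101, 95% interval 0.85 to 1.31, adjusted p = 1.88e-05), or 2.11-fold higher in Zeb1 cells. Its other probe set, 1425789_s_at, had 10.29, 10.12 and 10.22 on Zeb1 vector arrays, against 9.04, 8.60 and 9.13 on control vector arrays. There the rise was 1.28 (SE 0.141, adjusted p = 5.77e-05), or 2.43-fold, and the groups again stood apart. A suffix of s marks a probe set that can read several related transcripts; its change was close to that of the other in direction and size. Of all tested probe sets, 13.8% changed by more than the first and 10.7% by more than the second, in either direction.

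Anxa6 had positive changes on all 4 probe sets but passed the test on only 1. It is an annexin with a duplicated core, known for a part in late endosomal cholesterol and in scaffolding signalling proteins at the membrane. On 1429246_a_at it had 9.81, 9.84 and 10.22 on Zeb1 vector arrays, against 9.38, 9.22 and 9.52 on control vector arrays, and rose by 0.58 (SE 0.133, adjusted p = 0.00523). On its brightest probe set, 1415818_at, Zeb1 vector arrays had 11.10, 11.23 and 11.84 and control vector arrays 10.94, 11.14 and 11.10. Zeb1 replicate 3 stood above the rest there, and Zeb1 replicate 1 lay between control values. The change of 0.33 (SE 0.167, 95% interval -0.04 to 0.71) had an adjusted p of 0.134. It was 0.11 (adjusted p = 0.374) without Zeb1 vector replicate 3 and 0.48 (adjusted p = 0.0477) without Zeb1 vector replicate 1. With a replicate block over all 6 arrays the adjusted p was 0.0466, so this probe set lies on either side of the threshold by setting. The third tested one, 1442288_at, spread by over 1 log2 unit within each group, 7.18, 7.83 and 8.24 in Zeb1 cells against 6.70, 7.51 and 7.92 in control cells (change 0.37, adjusted p = 0.413). The fourth, 1429247_at, reached its array's median on 2 arrays and was not tested: it had 6.30, 6.87 and 6.63 on Zeb1 vector arrays, against 5.64, 6.12 and 5.35 on control vector arrays.

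Among annexins that also act at the outer cell surface, Anxa2 and Anxa5 rose and Anxa1 did not pass the test. Anxa2, which pairs with S100a10 and is known as a plasminogen and tissue plasminogen activator docking protein, had 14.43, 14.51 and 14.50 on Zeb1 vector arrays, against 14.23, 14.07 and 14.16 on control vector arrays (1419091_a_at). Every Zeb1 array was above every control array, and the rise was 0.33 (SE 0.0518, adjusted p = 0.00062), or 1.25-fold. On the dimmer 1437692_x_at, a kind of probe set that can cross-hybridise, Anxa2 had 8.75, 9.14 and 8.80 in Zeb1 cells, against 8.19, 8.51 and 8.23 in control cells. That rise was 0.58 (SE 0.15, adjusted p = 0.00971), and it missed the threshold with no filter on low signals (adjusted p = 0.0508). The third Anxa2 probe set, 1437691_at, lay at or near the floor on 5 arrays and read 5.13 on Zeb1 vector replicate 1, so it was not tested.

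Anxa5, the phosphatidylserine binder used as a stain for dying cells, had 14.21, 14.09 and 14.25 on Zeb1 vector arrays, against 13.85, 13.71 and 13.78 on control vector arrays. The groups did not overlap, and Anxa5 rose by 0.40 (SE 0.0584, adjusted p = 0.000337), or 1.32-fold. Anxa1, a glucocorticoid-induced protein that curbs inflammation through formyl peptide receptors, had 14.45, 14.46 and 14.58 on Zeb1 vector arrays, against 14.69, 14.53 and 14.59 on control vector arrays (1448213_at). The groups overlapped. The change of -0.11 (SE 0.0548, 95% interval -0.23 to 0.02) had an adjusted p of 0.149, and under quantile normalization it was -0.15 with an adjusted p of 0.0133, a call of lower. A dim second Anxa1 probe set, 1444016_at, was under the median on all 6 arrays and at the floor on 2 Zeb1 vector arrays; it was not tested.

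Anxa4 and Anxa7 are annexins of secretory and epithelial membranes, and they differed. Anxa4, known in epithelia for damping calcium-activated chloride conductance, had 11.92, 11.92 and 12.04 on Zeb1 vector arrays, against 12.80, 12.59 and 12.63 on control vector arrays (1424176_a_at). It fell by 0.71 on the log2 scale (SE 0.0714, adjusted p = 3.22e-05), or 1.63-fold. A second probe set of Anxa4, 1421223_a_at, had 11.92, 11.93 and 11.97 in Zeb1 cells, against 12.81, 12.60 and 12.65 in control cells, and fell by 0.75 (adjusted p = 1.35e-05). The third, 1457658_x_at, is of the kind that can cross-hybridise. It had 10.42, 9.89 and 10.17 in Zeb1 cells, against 11.30, 11.14 and 10.75 in control cells. There Anxa4 fell by 0.91 (SE 0.161, adjusted p = 0.00121), or 1.87-fold. On none of the 3 did a Zeb1 array reach the lowest control array, and the changes lay within 0.20 of each other.  In the same cells 4 of the 6 epithelial markers fell, Krt8 by only 0.16, and Cldn4 entered the test through control vector arrays alone. Over all tested genes 23.5% were called lower. The part of these markers in the Anxa4 result was not tested.

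Anxa7, or synexin, known for aggregating and fusing secretory granules in adrenal chromaffin cells, had 12.44, 12.47 and 12.52 on Zeb1 vector arrays, against 12.40, 12.50 and 12.47 on control vector arrays (1416138_at). The values interleaved, and the change was 0.02 (SE 0.0563, 95% interval -0.10 to 0.15, adjusted p = 0.77). A change of more than 0.15 in either direction thus lies outside the interval on this probe set. On 1416137_at the Zeb1 values 8.90, 8.93 and 8.98 were all above the control values 8.77, 8.87 and 8.76, but the change of 0.14 (SE 0.104) had an adjusted p of 0.325. The dimmest, 1438764_at, had 6.40 and 7.07 and a value at the floor in Zeb1 cells, against 6.20, 6.58 and 6.01 in control cells. Its change of -0.29 (95% interval -1.60 to 1.02) turned to 0.48 without Zeb1 vector replicate 3, the array at the floor, and passed the test in neither case.

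Anxa9 and Anxa3 fell by less. Anxa9 is an atypical annexin whose calcium sites have diverged in human. It had 7.65, 7.72 and 7.76 on Zeb1 vector arrays, against 8.18, 8.18 and 8.28 on control vector arrays. The groups were narrow and stood apart, and Anxa9 fell by 0.50 (SE 0.132, adjusted p = 0.0114), or 1.42-fold. Anxa3, a bright annexin, had 14.21, 14.23 and 14.20 on Zeb1 vector arrays, against 14.46, 14.27 and 14.41 on control vector arrays. The highest Zeb1 array lay just below control replicate 2. Anxa3 fell by 0.17 (SE 0.055, adjusted p = 0.033), or 1.12-fold, and the call is fragile. It was lost without any 1 Zeb1 vector array and without control vector replicate 1 or 3 (adjusted p = 0.0714 to 0.115), with no intensity trend (0.182), with no filter (0.144) and with a replicate block (0.0597).

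**Figure D2:**
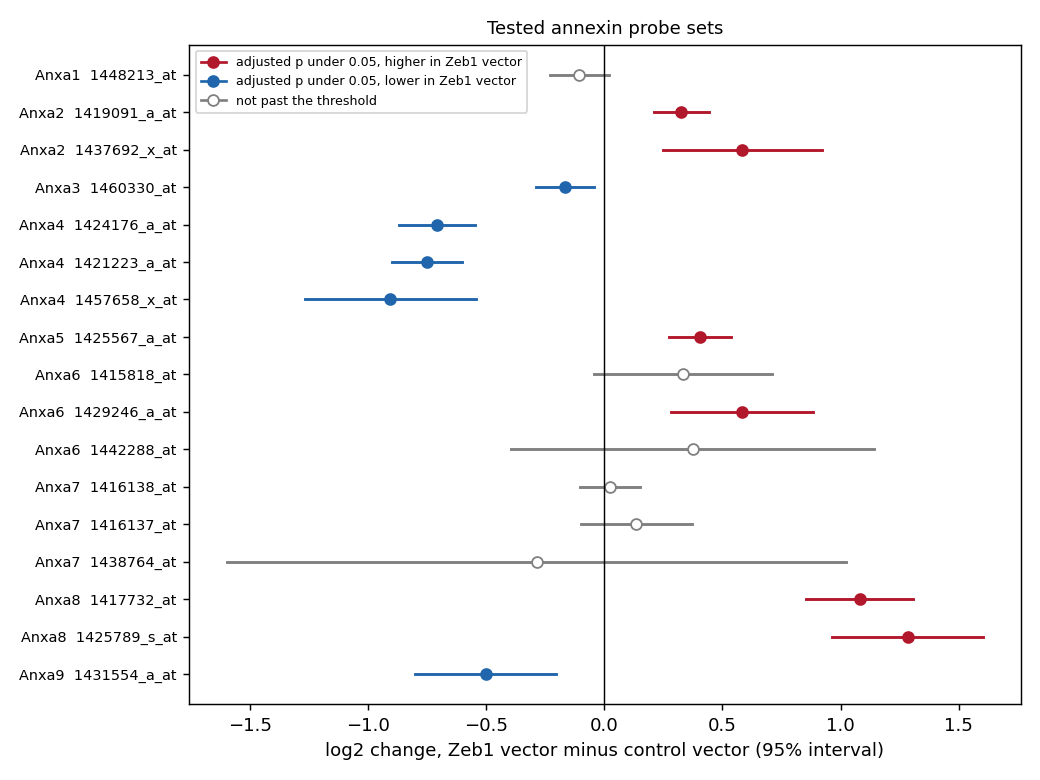
Log2 change (Zeb1 vector minus control vector, horizontal axis) of the 17 tested annexin probe sets with limma's 95% intervals. Filled red points passed the test and were higher in Zeb1 vector cells, filled blue points were lower, and open grey points did not pass; the changes run from -0.91 (Anxa4) to 1.28 (Anxa8).

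Signal strength differs widely among these probe sets, and it moves with the size of the change over all genes. Anxa1, Anxa2, Anxa3 and Anxa5 each had a probe set averaging over 13 on the log2 scale, while the highest value on any array was 15.03. Of the 647 tested probe sets that bright, 45.7% passed the test, 10 of them with a change of at least 1 (1.55%), and their median absolute change was 0.14, against 0.36 over all tested probe sets. The changes of Anxa2 (0.33), Anxa5 (0.40), Anxa3 (-0.17) and Anxa1 (-0.11) on those probe sets are to be read on that scale. In size 3 of the 4 exceeded that median. As many bright probe sets lie above their median as below it, so this count is a description only. Both the cut-off of 13 and a higher one of 13.5, which was used first, were chosen after the annexin values were seen. At 13.5 the set shrank to 361 probe sets, of which 39.6% passed, and the median absolute change was 0.11. Again 3 of the 4 annexin changes exceeded it. The share passing with a change of at least 1 depended on the cut-off, at 1 probe set (0.277%). Whether such signals are compressed near the top of the scale was not tested. The dimmer Anxa2 probe set gave the larger change of 0.58.

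**Figure D3:**
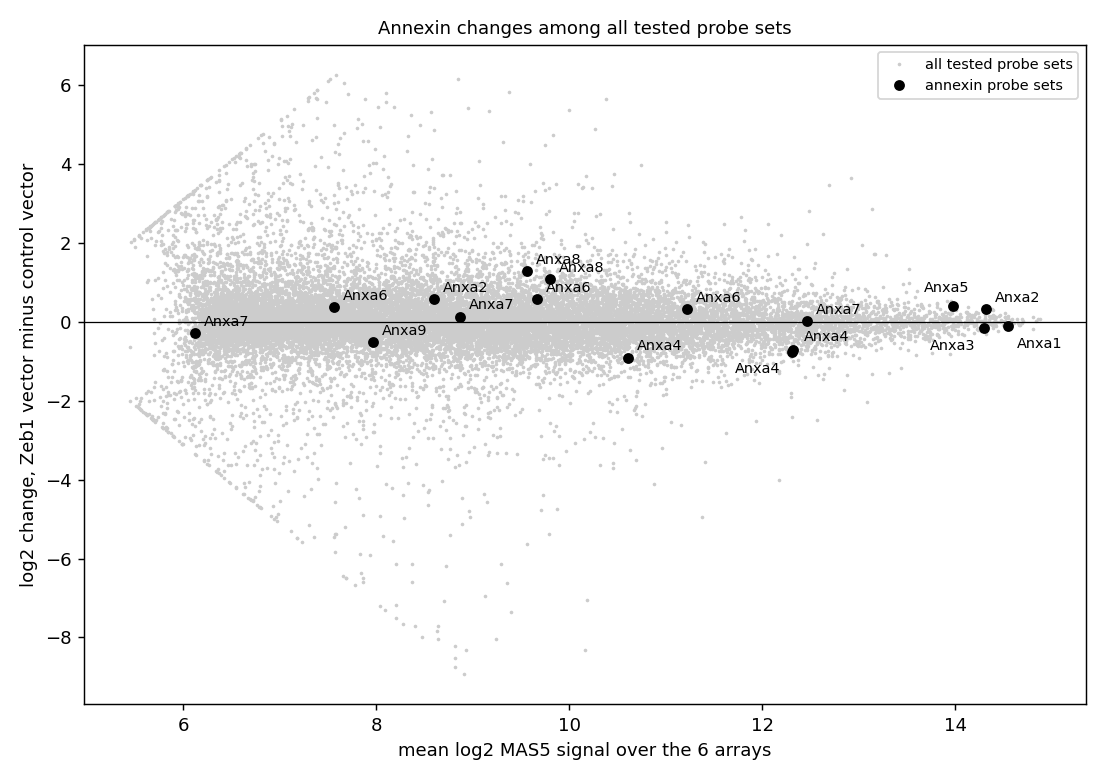
Log2 change (Zeb1 vector minus control vector, vertical axis) against mean log2 MAS5 signal over the 6 arrays (horizontal axis) for all 20594 tested probe sets (grey) and the annexin probe sets (black, named). The grey cloud narrows toward bright signals, where Anxa1, Anxa2, Anxa3 and Anxa5 lie, and the Anxa8 points lie highest among the named ones, at 1.08 and 1.28.

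Genes that work with annexins were taken from 6 lists of 47 genes, of which 41 had a probe set of 1 symbol and 38 were tested, each by its brightest tested probe set. A probe set that reached its array's median in only 1 group could enter the test only if the groups differed there, and its p supports nothing. This held for none of the 17 tested annexin probe sets and for 1 of the 38 partner genes, Atp8b1. Of the other 37, 14 rose and 6 fell (54.1% called), with a median log2 change of 0.09. Over all 11345 genes whose brightest probe set passed in both groups the called share was 47.2%, 24.7% higher and 22.5% lower, and the median change 0.01. Over all 11893 tested genes it was 49.3%, 25.8% higher and 23.5% lower. The counts of single lists that follow cover few genes and are read against these shares.

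S100 proteins dock on annexin tails. S100a4, a motility-linked binder of Anxa2, had 12.74, 12.71 and 12.77 on Zeb1 vector arrays, against 8.67, 8.81 and 8.79 on control vector arrays, and rose by 3.98 (SE 0.0745, adjusted p = 8.63e-10), or 15.8-fold. S100a10, the standing partner of Anxa2, fell by 0.28 on its brightest probe set (SE 0.0649, adjusted p = 0.00601), with 13.81, 13.80 and 13.74 in Zeb1 cells against 14.15, 13.92 and 14.12 in control cells. Its other 2 probe sets had changes of 0.08 (adjusted p = 0.281) and -0.25 (adjusted p = 0.16), and the call did not hold unfiltered (adjusted p = 0.0603) or with no intensity trend (0.0596). As the mean of its probe sets S100a10 changed by -0.15 (adjusted p = 0.0386). Anxa2 rose by 0.33 in the same arrays, so the calls for the pair have opposite signs on these probe sets; the difference itself was not tested. S100a6, a binder of Anxa11 and other annexins, rose by 0.25 (adjusted p = 0.0169). Leaving out Zeb1 vector replicate 1 (adjusted p = 0.0578), Zeb1 vector replicate 2 (0.0758) or control vector replicate 3 (0.0743) ended this call, as did testing unfiltered (0.123) or with no intensity trend (0.1).

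Cytosolic phospholipase A2, Pla2g4a, whose activity Anxa1 is known to restrain, had 12.18, 12.09 and 12.08 on Zeb1 vector arrays, against 10.06, 10.11 and 10.13 on control vector arrays. It rose by 2.02 (SE 0.0682, adjusted p = 2.25e-08), or 4.05-fold. The prostaglandin synthase Ptgs2, next in that pathway, rose by 0.56 (adjusted p = 0.000695), and by 1.23 on a dimmer probe set (0.89 for the mean of both). The Anxa1 receptor Fpr2 had a change of -0.28 (adjusted p = 0.395), Pla2g6 one of 0.18 (adjusted p = 0.336) and the lipoxygenase Alox5 one of -0.25 (adjusted p = 0.623). So 2 of 5 tested genes of this list rose and the other 3 did not pass.

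Calcium-binding and ESCRT adaptors moved little. Sri and Pdcd6, which bind Anxa7 and Anxa11, had changes of 0.09 (adjusted p = 0.472) and -0.07 (adjusted p = 0.536), and Pef1, a partner of Pdcd6, 0.13 (adjusted p = 0.237). Of 8 tested genes 1 rose, the membrane-scission subunit Chmp4b, by 0.23 (adjusted p = 0.013), and 7 did not pass. Leaving out Zeb1 vector replicate 1 (adjusted p = 0.0585) or control vector replicate 3 (0.0587) ended the call, as did the fit with no intensity trend (0.08). The other Chmp4b probe set changed by 0.16 and did not pass (adjusted p = 0.0902). On their brightest probe sets Pdcd6ip, Tsg101, Vps4a and Vps4b lay between -0.05 and 0.16 and did not pass. Vps4b did pass without Zeb1 vector replicate 3 (0.23, adjusted p = 0.0298). Dimmer Pdcd6ip probe sets ran from -0.51 to 0.19, and none passed.

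In the plasmin system that Anxa2 serves, 2 of 4 tested genes rose and 2 fell. The urokinase gene Plau had 9.75, 9.57 and 9.57 on Zeb1 vector arrays, against 13.27, 13.01 and 13.26 on control vector arrays, and fell by 3.55 (SE 0.0899, adjusted p = 4.65e-09), and it fell by 3.46 on its other probe set. Its neighbours in the pathway moved less, and these 3 were named after their values were seen. Plat, tissue plasminogen activator, fell by 0.55 (adjusted p = 0.00614), a call lost with no filter (0.055). The plasminogen receptor Plgrkt rose by 0.68 (adjusted p = 0.000103) and the urokinase receptor Plaur by 0.21 (adjusted p = 0.012), a call lost with no intensity trend (0.0666).

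Of 11 tested genes of membrane repair 5 rose and 2 fell, none by 1 on the log2 scale, with a median change of 0.13. Over all tested genes 49.3% were called. Named after their values were seen, the 5 were the caveolar genes Cav1 (0.61, adjusted p = 4.92e-05) and Cavin1 (0.47, adjusted p = 0.000921), the ferlin Myof (0.51, adjusted p = 0.00102) and the membrane-bending ATPases Ehd2 (0.43, adjusted p = 0.00422) and Ehd4 (0.44, adjusted p = 0.000355). The 2 that fell were the calpain subunits Capn1 (by 0.50, adjusted p = 0.0102) and Capns1 (by 0.32, adjusted p = 0.00552), and both calls were lost with no filter (0.0656 and 0.0583). Cav2, another caveolar gene, did not pass on its brightest probe set (-0.15, adjusted p = 0.125) or on its dimmer one (0.20, adjusted p = 0.583). A dimmer Cavin1 probe set, 1421431_at, did not pass either (0.40, adjusted p = 0.162). Ahnak, a giant scaffold that binds the Anxa2 and S100a10 complex, gave probe sets that disagree. The brightest changed by 0.13 (adjusted p = 0.129), while the dimmer 1428057_a_at changed by -1.42 (adjusted p = 0.000132). Another, 1428058_at, entered the test through control vector arrays alone, with 4.45, 4.45 and 5.32 on Zeb1 vector arrays, against 6.74, 7.21 and 6.85 on control vector arrays. Ehd1, of the same family as Ehd2 and Ehd4, did not pass on its brightest probe set, with a change of -0.20 (adjusted p = 0.274). Of its other 3 probe sets 2 were lower in Zeb1 cells, with changes of -0.38 on 1416011_x_at (adjusted p = 0.00055) and -0.89 on 1416012_at (adjusted p = 0.000212). Cav2, Ahnak and Ehd1 were also named after their values were seen.

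Phosphatidylserine, the lipid that Anxa5 binds, is moved across the membrane by flippases and scramblases. Of 7 tested genes 2 rose, 1 fell and 3 did not pass, and Atp8b1, the last of the 7, is given apart. Atp8b1, a flippase, was at the floor on all 3 Zeb1 vector arrays, against 7.74, 8.03 and 7.72 on control vector arrays, which makes it at least 10.4-fold lower in Zeb1 cells. It entered the test through control vector arrays alone, so no p is given. That bound moves with the floor: the log2 change was -3.38, and -1.51 with a floor at the pooled 50th percentile. The scramblase Xkr8 had 8.10, 7.95 and 7.88 in Zeb1 cells, against 7.24, 6.56 and 7.11 in control cells, and rose by 1.00 (SE 0.207, adjusted p = 0.003). Tmem30a, the flippases' chaperone, rose by 0.67 (adjusted p = 0.000507), and the scramblase Ano6 fell by 0.33 (adjusted p = 0.0225). The Ano6 call did not survive leaving out Zeb1 vector replicate 1 or 2, or control vector replicate 1 or 2 (adjusted p = 0.067 to 0.0864). Atp8a1, another flippase, counts as not called, since its brightest probe set changed by -0.40 (adjusted p = 0.224). Its other 3 tested probe sets entered the test through control vector arrays alone. Their log2 changes were -1.70, -2.34 and -3.13, of which -2.34 and -3.13 are bounds from the floor. Tmem30a, Ano6 and Atp8a1 were named after their values were seen.

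Of annexins outside the 10 names, Anxa13 and Anxa10 were measured, and both were dim. Anxa13, an intestinal and renal annexin, had 7.27, 6.96 and 7.19 on Zeb1 vector arrays, against 5.59, 5.51 and 6.34 on control vector arrays, a difference of 1.33, or 0.82 with a floor at the pooled 50th percentile. It entered the test through Zeb1 vector arrays alone, so no p is given. Anxa10, a gastric annexin, had 6.28, 6.14 and 6.75 on Zeb1 vector arrays, against 7.09, 7.73 and 7.59 on control vector arrays, and fell by 1.08 (SE 0.253, adjusted p = 0.00615).

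**Figure D4:**
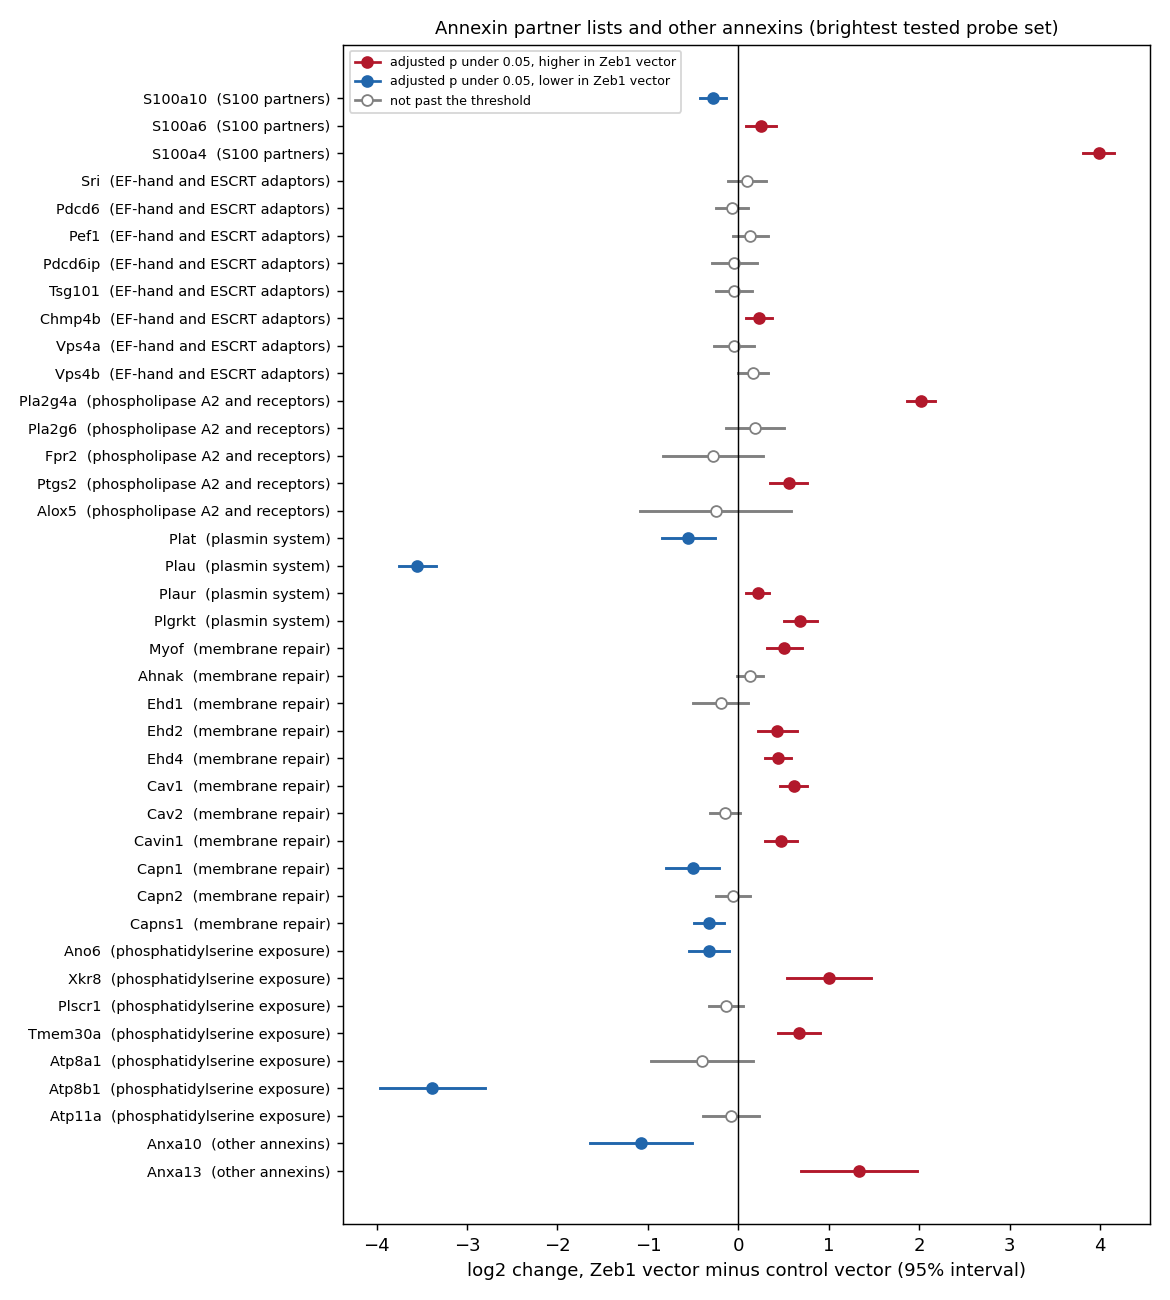
Log2 change (Zeb1 vector minus control vector, horizontal axis) with limma's 95% intervals for 40 tested genes (38 partners, Anxa10 and Anxa13), each by its brightest tested probe set, with the list in brackets. Atp8b1 and Anxa13 entered the test through 1 group alone. Red filled points were higher and blue filled points lower in Zeb1 vector cells past the test, and open grey points did not pass; S100a4 (3.98) and Plau (-3.55) are the extremes.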

How the data were processed

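RNA of 6 cultures of 393P cells was read on Affymetrix expression arrays. The deposited values are log2 MAS5 signals; MAS5 is named in the submitters' processing notes, with no version given there. Linear signals were multiples of 0.1 (100% of values, tolerance 0.01 multiples), and the linear mean trimmed by 2% at each end was 500 to 500.2 per array, so each array had been scaled alone. The 2 missing values were set to the floor, the pooled 25th percentile (log2 4.45, linear 21.8), to which lower signals were raised. Of 45101 probe sets, 34945 had 1 symbol (64 controls, 932 with several and 9160 with none were left out). Symbols were looked up by Entrez identifier in RefSeq (GRCm38.p6, 34741 found, 0 changed).

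Each probe set with a signal at or above its array's median on at least 3 arrays was fitted with limma 3.58.1 in R 4.3.3 (lmFit, eBayes with intensity trend), with p-values adjusted by Benjamini-Hochberg across all 20594 tested probe sets. Every adjusted p is from this model unless another setting is named beside it. SE is the moderated standard error; values are per array or mean differences. Precision is limited by there being only 3 arrays in each group (median SE 0.147). In data simulated for this comparison over 20594 probe sets, with 100 changed by each size, 62% of log2 changes of 1 and 89% of those of 2 were recovered, with 6 false calls; far more probe sets were called in the arrays (9493), so these shares describe sparser changes. Named were all annexin probe sets, partner genes called with a change of at least 1, all tested genes of the S100, adaptor and phospholipase lists, and the exceptions marked in the text. The annexins and the partner lists were chosen with earlier results of these data known. Alternatives tried were other floors, filters, scaling, 1 value per gene, no trend, a replicate block and leaving out each array. The groups share replicate numbers, which the labels do not say are paired.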

Additional observations from a re-analysis of the deposited data

How the results depend on the processing

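The annexin count of 11 was 9 with no filter, 12 under quantile normalization, 10 with no intensity trend, and 10 to 11 with any 1 array left out. With 1 probe set per gene or the mean of a gene's probe sets it was 6 of 9 genes in both cases, since fewer units are then tested; over all features those settings called 6004 and 5859 of 11893 genes, against 9493 of 20594 probe sets. With any 1 array left out, 8286 to 9217 probe sets and 20 to 25 of the 40 genes of the partner lists, Anxa10 and Anxa13 were called, against 23 with all arrays. Counting only probe sets that passed the filter in both groups, an alternative chosen after seeing the data, left 11 annexin, 8493 total and 21 partner calls. The tested probe sets were those of all 6 arrays throughout. Both Anxa8 probe sets, all 3 of Anxa4, Anxa5, Anxa9, Anxa6 1429246_a_at and the brightest of Anxa2 kept direction and call under every alternative that held them. Results that turned direction passed the test in no setting. Anxa7 1438764_at changed by 0.19 when the floor was the pooled 50th percentile, and by -0.84 to 0.48 with 1 array left out. Anxa7 1416138_at changed by -0.042 as the mean of probe sets and by -0.0046 to 0.045 with 1 array left out. With 1 array left out, Sri ran over -0.018 to 0.17, Pdcd6ip over -0.16 to 0.055, Tsg101 over -0.11 to 0.012, Vps4a over -0.14 to 0.021 and Alox5 over -0.60 to 0.027. The cause was not tested. Deviations of same-numbered arrays from their group means correlated at r = -0.039 to 0.0173 over all tested probe sets. With means of only 3 arrays, this cannot decide whether cultures of the same number were paired. With a replicate block 11 annexin, 9377 total and 23 partner calls were made. In that fit Anxa3 was lost (adjusted p = 0.0597) and Anxa6 1415818_at gained (adjusted p = 0.0466). Quantile normalization moved the median change of all probe sets to -0.03. The cut-offs of 13.5 and 13 for bright probe sets were both chosen after seeing the data, and 13.5 was used first. At 13.5, 1 probe set passed with a change of at least 1, and at 13 there were 10.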
